A study of Drosophila melanogaster with 34 samples.

Results

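Stretches of 40 to 135 kb around 6 Drosophila melanogaster genes of the ecdysone response (br, Hr4, Eip74EF, ftz-f1, Kr-h1 and Hr39) were examined in 18 lists of protein-bound regions made by chromatin immunoprecipitation and sequencing (ChIP-seq). A deposited region was taken when it overlapped a gene's window by 1 bp or more, and 310 of the 48602 regions in all lists (0.638%) did so. The 6 windows together span 475 kb, or 0.395% of the chromosome arms.

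The series holds 34 samples, 18 of them ChIP samples with 1 list each and 16 of them inputs with none. EcR, the ecdysone receptor, was precipitated through its tag with goat antibody against GFP from y w, VK33 animals carrying EcR-GFP. These samples are labelled WPP (white prepupa) with 30–33 h and 10–11 h, and the hours serve here only to name the 2 times. Caudal, a homeodomain factor, was mapped in embryos of 0 to 4 h with an antibody against the protein in the strain y; bw cn sp, and through cad-GFP in y w, VK33 animals at 3 later stages (embryos of 4 to 8 h, larvae of the L3 stage, and females aged 21 days). CTCF, an insulator protein, was mapped in S2 cells, a cell line derived from embryos, in lists numbered 200 and 500. The 5 histone deacetylases, numbered HDAC1, 3, 4a, 6 and 11 in the labels, were mapped in y; bw cn sp embryos of 0 to 12 h, with 2 lists each and 1 input for all 10 lists. The inputs of the 5 GFP samples came from y; bw cn sp animals, so these ChIPs and their inputs differ in strain. Material was fixed in 1.8% formaldehyde, reads were 36 bp, and the labels name no hormone or drug treatment.

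Ecdysone is the steroid hormone whose pulses time the moults and metamorphosis of insects. It acts through EcR, which pairs with the nuclear receptor Ultraspiracle on DNA and switches on a small set of early genes, most of which encode transcription factors. These early factors and the receptors that follow them turn on late tissue genes, set the timing of the next pulse and end their own expression. The windows cover several kinds of regulator. Of the genes, br and Eip74EF are classic early genes, Hr4, ftz-f1 and Hr39 encode nuclear receptors, and Kr-h1 encodes a zinc-finger factor known mainly from the response to juvenile hormone.

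Each list was pooled by the authors from 1 to 3 libraries (3 for each EcR list). Each EcR time and each Caudal stage has 1 list, so there is no replicate error for them and no test between times or stages. CTCF and the deacetylases have 2 lists each, whose values are given side by side. No test was run between targets. The lists held 483 to 5627 regions. In samples of whole animals, strong binding in few cells and weak binding in many cannot be told apart. Lists that carry the same label did not always overlap well along the whole genome. Of HDAC4a list 1 peaks 28.5% overlapped HDAC4a list 2, of HDAC11 list 1 peaks 19.1% overlapped HDAC11 list 2, and of HDAC6 list 1 peaks 47.8% overlapped HDAC6 list 2. HDAC6 list 1 instead met HDAC4a list 2 with 83.6% of its peaks, and HDAC6 list 2 met HDAC1 lists 2 and 1 with 72.1% and 69.8%. Whether these lists carry the right labels was not tested. A value given under HDAC1, HDAC4a, HDAC6 or HDAC11 holds only as far as its label does. Results for these targets are therefore given list by list or with the count that both lists share. The header of the Caudal L3 list names EcR, whereas its labels name Caudal, and the labels were followed.

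The gene table of release 6, used for names alone, puts br between inc and dor, Hr4 between CG3587 and east, and Eip74EF between CycT and Vps60. It puts ftz-f1 between Atg3 and CG14073, Kr-h1 between Kr-h2 and CG9175, and Hr39 between CG31626 and l(2)k14505. Regions are given in release 5 coordinates, and their place in promoters, exons or introns was not analysed here.

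EcR was the target whose regions gathered most strongly at these genes. The windows held 25 EcR regions at 30–33 h, where their length at the list's density along the arms gives 1.89, and 26 regions at 10–11 h, where it gives 1.91. The windows thus held 13.2 times the regions that length gives at 30–33 h and 13.6 times at 10–11 h. The other 16 lists lay between 0.586 times for Caudal in embryos of 0 to 4 h and 2.06 times for HDAC11 list 1. EcR regions lay in 5 of 6 windows at either time, whereas 19.5% of 80 kb tiles of the arms held a region of the 30–33 h list and 20.3% a region of the 10–11 h list. They covered 4.79% of the windows' bases against 0.22% of the arms at 30–33 h, and 5.12% against 0.212% at 10–11 h. The window without any EcR region at either time was that of ftz-f1.

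**Figure D1:**
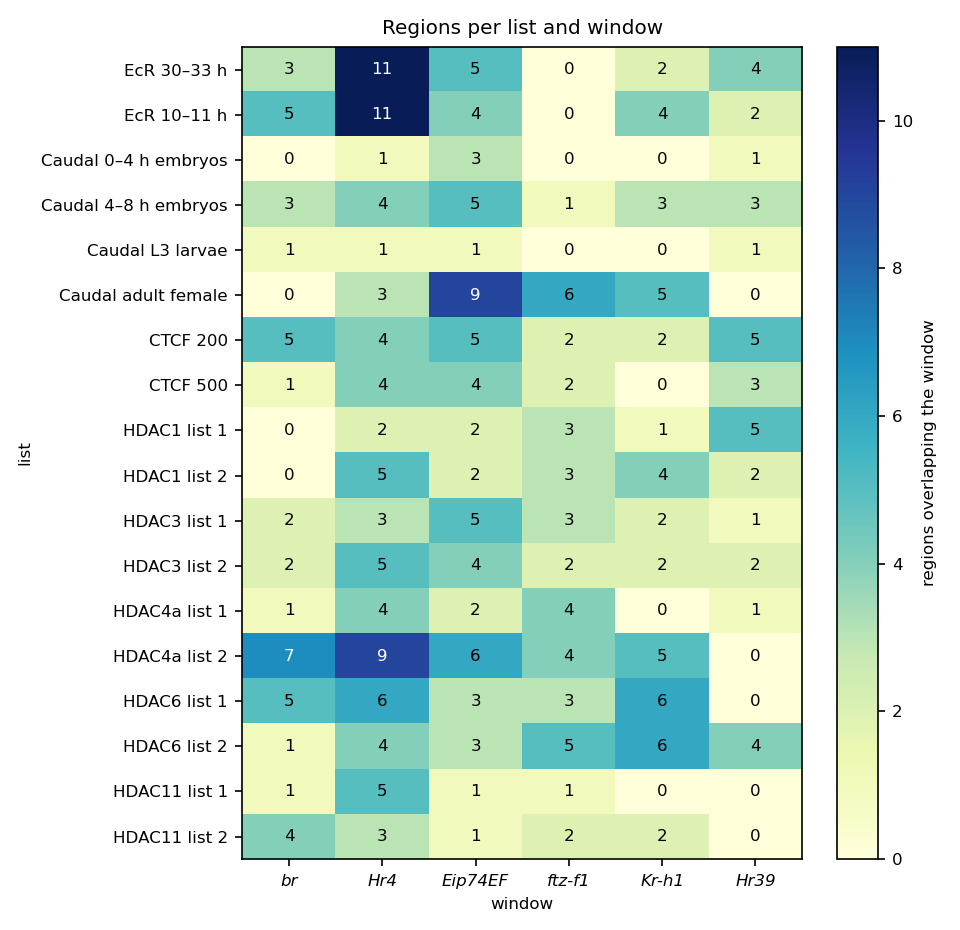
Number of deposited regions overlapping each window (columns) in each of the 18 lists (rows), with colour and printed number both giving the count. The 2 EcR rows hold 11 regions each in the Hr4 window and 0 in the ftz-f1 window.

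The plot of counts by list and window shows that the EcR regions were not spread evenly over the genes. At 30–33 h the windows of br, Hr4, Eip74EF, ftz-f1, Kr-h1 and Hr39 held 3, 11, 5, 0, 2 and 4 regions. The same windows held 5, 11, 4, 0, 4 and 2 regions at 10–11 h. Hr4 alone thus held 11 of 25 regions at 30–33 h and 11 of 26 at 10–11 h. When regions of both times that overlap were joined, 32 separate stretches of EcR binding remained, 5 at br, 12 at Hr4, 7 at Eip74EF, 4 at Kr-h1 and 4 at Hr39.

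The br gene encodes the Broad family of BTB zinc-finger proteins, which specify the pupal stage. Its window (arm X, 1455000 to 1590000, release 5 of the genome) is the longest of the 6, and its EcR regions lay in the left part of it. At 30–33 h the regions were X:1472287-1473221 with an authors' score of 8.94 (rank 167 of 478 in the list), X:1510887-1511521 with 8.79 (rank 215) and X:1511987-1513721 with 8.73 (rank 246). Each of them overlapped a region at 10–11 h. The score is the authors' own, on a scale that is not stated, and serves here to order the regions of 1 list. The counterparts at 10–11 h were X:1472112-1473446 with a score of 8.29 (rank 94 of 483), X:1510612-1511546 with 8.62 (rank 48) and X:1511812-1512846 with 8.98 (rank 29). A further 2 regions, X:1471112-1471446 and X:1504012-1504446, were in the 10–11 h list alone, with ranks of 301 and 257. The br regions therefore formed a left and a right group within 42.6 kb, parted at the widest point by 30.6 kb without EcR. Of all 135 kb tiles of the arms, 5.41% held 3 or more regions at 30–33 h and 0.788% held 5 or more at 10–11 h.

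Hr4 encodes a nuclear receptor that links the early genes to the prepupal genes of the cascade. Its window (arm X, 1820000 to 1920000) had 11 regions at 30–33 h against 0.398 from length, and 11 at 10–11 h against 0.402. Among 1199 tiles of 100 kb, 3 held as many regions or more at 30–33 h and 2 at 10–11 h. The tiles cover the windows too, so the tile that holds the Hr4 regions is itself among those counted. EcR regions covered 11.4% of the window at 30–33 h and 12.1% at 10–11 h. The highest by score at 30–33 h was X:1843987-1847421, a region of 3435 bp with a score of 10.2 (rank 12). The highest at 10–11 h was X:1843712-1846546, with 2835 bp and a score of 9.34 (also rank 12 in its own list). These 2 overlap, and the wider 30–33 h region also overlaps X:1846712-1847446 of the 10–11 h list.

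The 12 separate EcR stretches at Hr4 fell into a dense left cluster and a looser right one. In the left cluster, 5 regions at 30–33 h ran from 1835587 to 1847421 with widths of 635 to 3435 bp and ranks of 12 to 150. There the 10–11 h list also had 5 regions, with widths of 735 to 3035 bp and ranks of 12 to 159. After a gap of 10.4 kb the right cluster began at 1857812, and its regions were mostly short. At 30–33 h it held 6 regions of 335 to 835 bp, of which X:1869787-1870621 stood out with a score of 9.85 (rank 33). At 10–11 h it held 6 regions of 135 to 935 bp, and the counterpart of X:1869787-1870621 was 135 bp wide with a score of 7.48 (rank 428). At 30–33 h 2 of the 11 Hr4 regions had no counterpart at the other time, and at 10–11 h 2 of the 11 had none. All 4 of those lay in the right cluster.

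Eip74EF encodes an ETS-domain transcription factor and is an early gene of the larval salivary gland puffs. Its window (arm 3L, 17550000 to 17640000) held 5 regions at 30–33 h against 0.358 from length, and 4 at 10–11 h against 0.362. Tiles of 90 kb held as many in 0.975% of cases at 30–33 h and in 1.13% at 10–11 h. The highest at 30–33 h was 3L:17603962-17605696, with 1735 bp, a score of 10.4 and rank 11. At 10–11 h it was 3L:17604109-17605543, with 1435 bp, a score of 9.49 and rank 8, and the midpoints of the 2 regions lay 3 bp apart. The only other stretch found at both times was 3L:17601262-17601896 at 30–33 h (score 8.78, rank 219), whose counterpart 3L:17600909-17602643 at 10–11 h was wider (1735 bp, score 8.56, rank 59).

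The remaining Eip74EF regions differed between the lists in position. The 30–33 h list had 3 regions in the left part of the window, at 17556662, 17570762 and 17583562, with ranks of 131, 204 and 92, and no region of the 10–11 h list touched them. The 10–11 h list had 2 in the right part, at 17606309 and 17614209, with ranks of 142 and 405, and no region of the 30–33 h list touched those. The regions of both times together spanned 57.8 kb, the longest span among the 5 windows with EcR regions.

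Kr-h1 encodes a zinc-finger protein that answers juvenile hormone and is also regulated by ecdysone. Its window (arm 2L, 6065000 to 6105000) held the highest-scoring EcR region of the whole 30–33 h list, 2L:6078614-6079548, with a score of 11.0. The counterpart at 10–11 h, 2L:6078641-6079575, had a score of 9.62 and rank 5. Both were 935 bp wide, with midpoints 27 bp apart. The other region of 30–33 h, 2L:6088214-6088848 (score 9.34, rank 82), overlapped 2L:6087641-6088875 at 10–11 h (score 8.37, rank 83). Regions at 6074241 and 6081541 were in the 10–11 h list alone, with ranks of 270 and 221. Among 40 kb tiles, 2.53% held 2 or more regions at 30–33 h and 0.333% held 4 or more at 10–11 h.

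Hr39 encodes a nuclear receptor that is induced by ecdysone and related to FTZ-F1. Its window (arm 2L, 21225000 to 21270000) held 4 regions at 30–33 h and 2 at 10–11 h, where 0.637% of 45 kb tiles held as many at 30–33 h and 3.07% at 10–11 h. The highest at 30–33 h was 2L:21243814-21244548 with a score of 9.5 (rank 62), and its counterpart at 10–11 h, 2L:21243941-21244575, had 7.77 (rank 252). The other shared stretch was 2L:21237414-21238248 at 30–33 h (score 9.44, rank 70) and 2L:21237541-21238275 at 10–11 h (score 8.6, rank 53), the highest of that list in this window. The 2 regions in the 30–33 h list alone, at 21250814 and 21251914, were each 235 bp wide and ranked 419 and 377, near the foot of the list.

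ftz-f1 encodes a nuclear receptor expressed when the hormone is low in the mid prepupa, which makes tissues competent for the following pulse. Its window (arm 3L, 18735000 to 18800000) held 0 EcR regions in either list. Among 65 kb tiles of the arms, 83.9% held none at 30–33 h and 83.1% none at 10–11 h, so an empty window of this length was the usual case. The nearest region at 30–33 h was 3L:18817262-18817596, 17.3 kb to the right of the window, with a score of 8.66. The nearest at 10–11 h was 3L:18803009-18803243, 3.01 kb to the right, with a score of 7.56. A second one at 10–11 h, 3L:18807309-18807743, lay 7.31 kb to the right with a score of 8.05. With windows widened by 10 kb on either side, ftz-f1 had 2 EcR regions at 10–11 h and still 0 at 30–33 h.

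**Figure D2:**
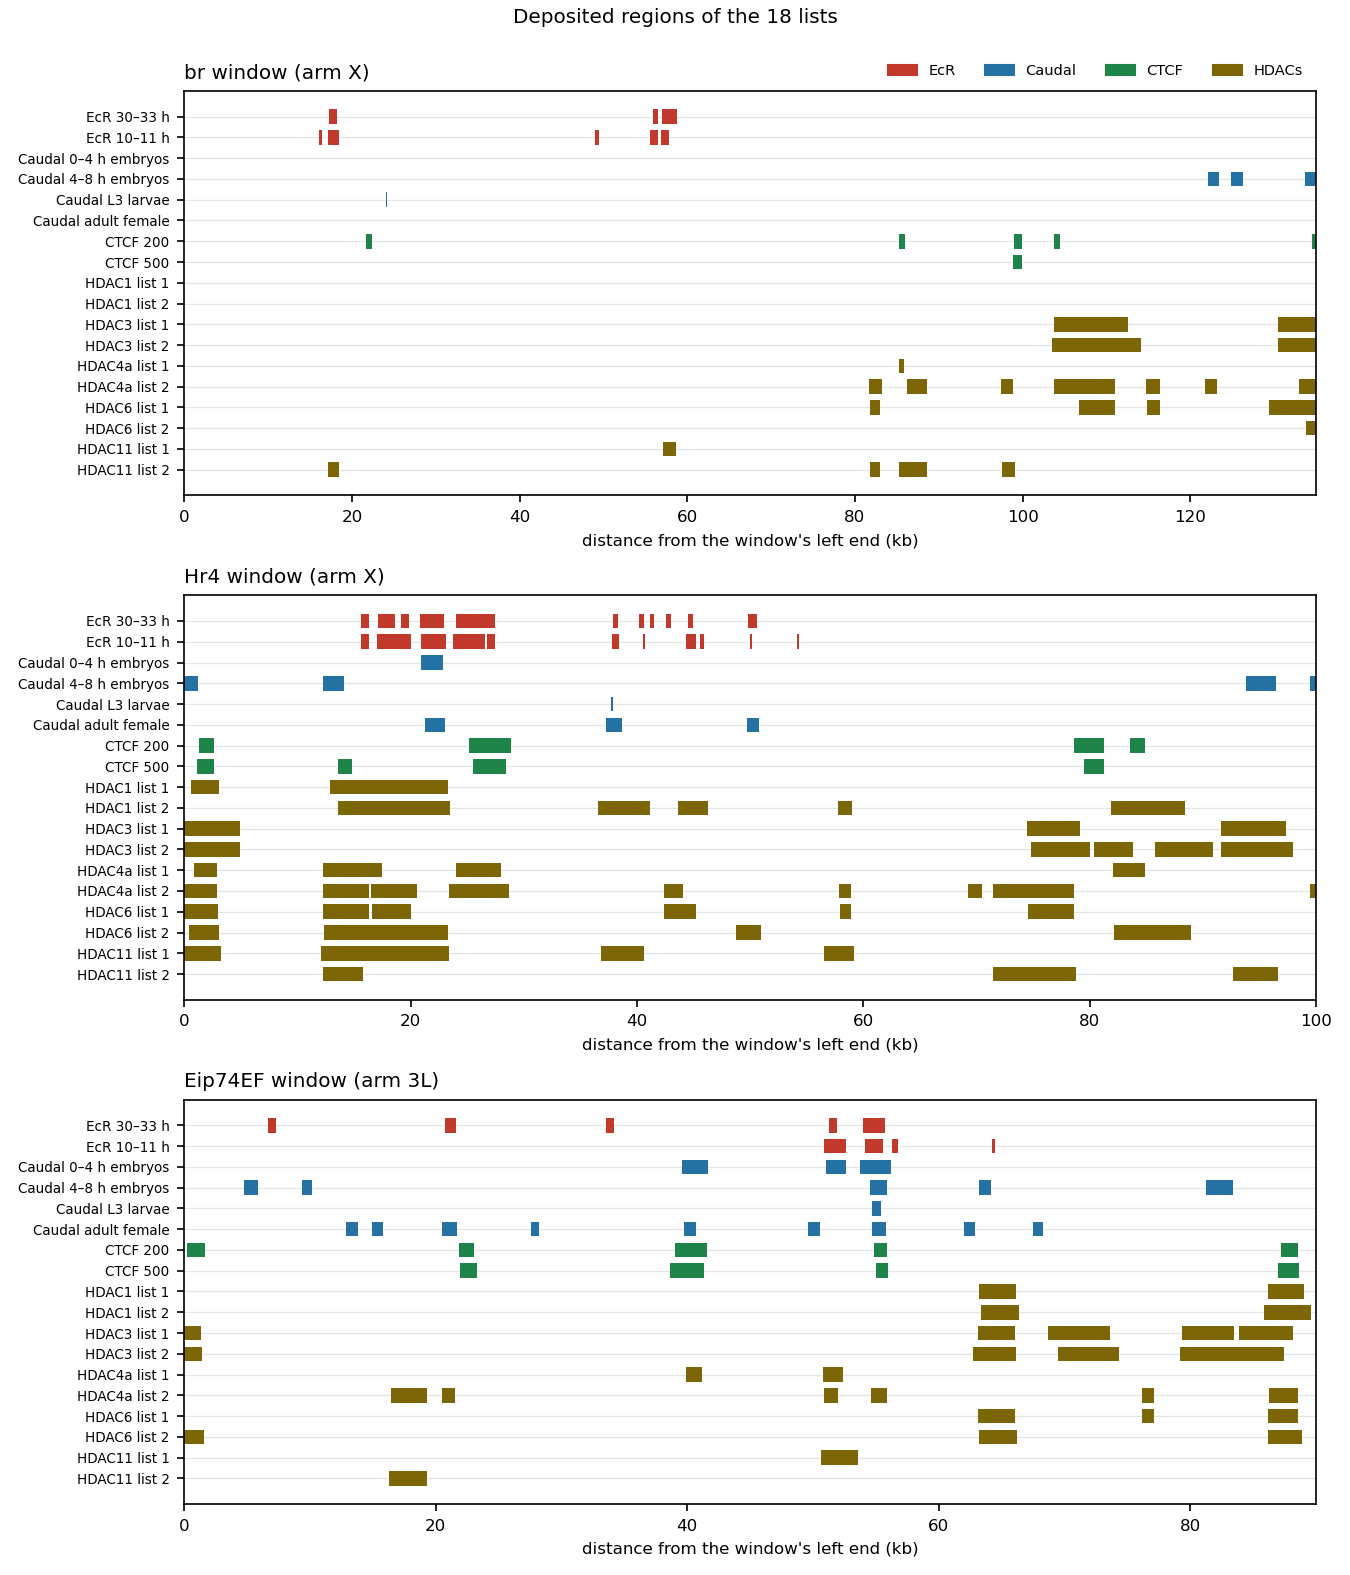
Deposited regions (bars, to scale) of the 18 lists (rows) in the br, Hr4 and Eip74EF windows against distance from the window's left end in kb, coloured by target. EcR regions lie left of 60 kb at br, in a dense left and a looser right cluster at Hr4, and share the stretch near 55 kb at Eip74EF with 7 other lists.

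**Figure D3:**
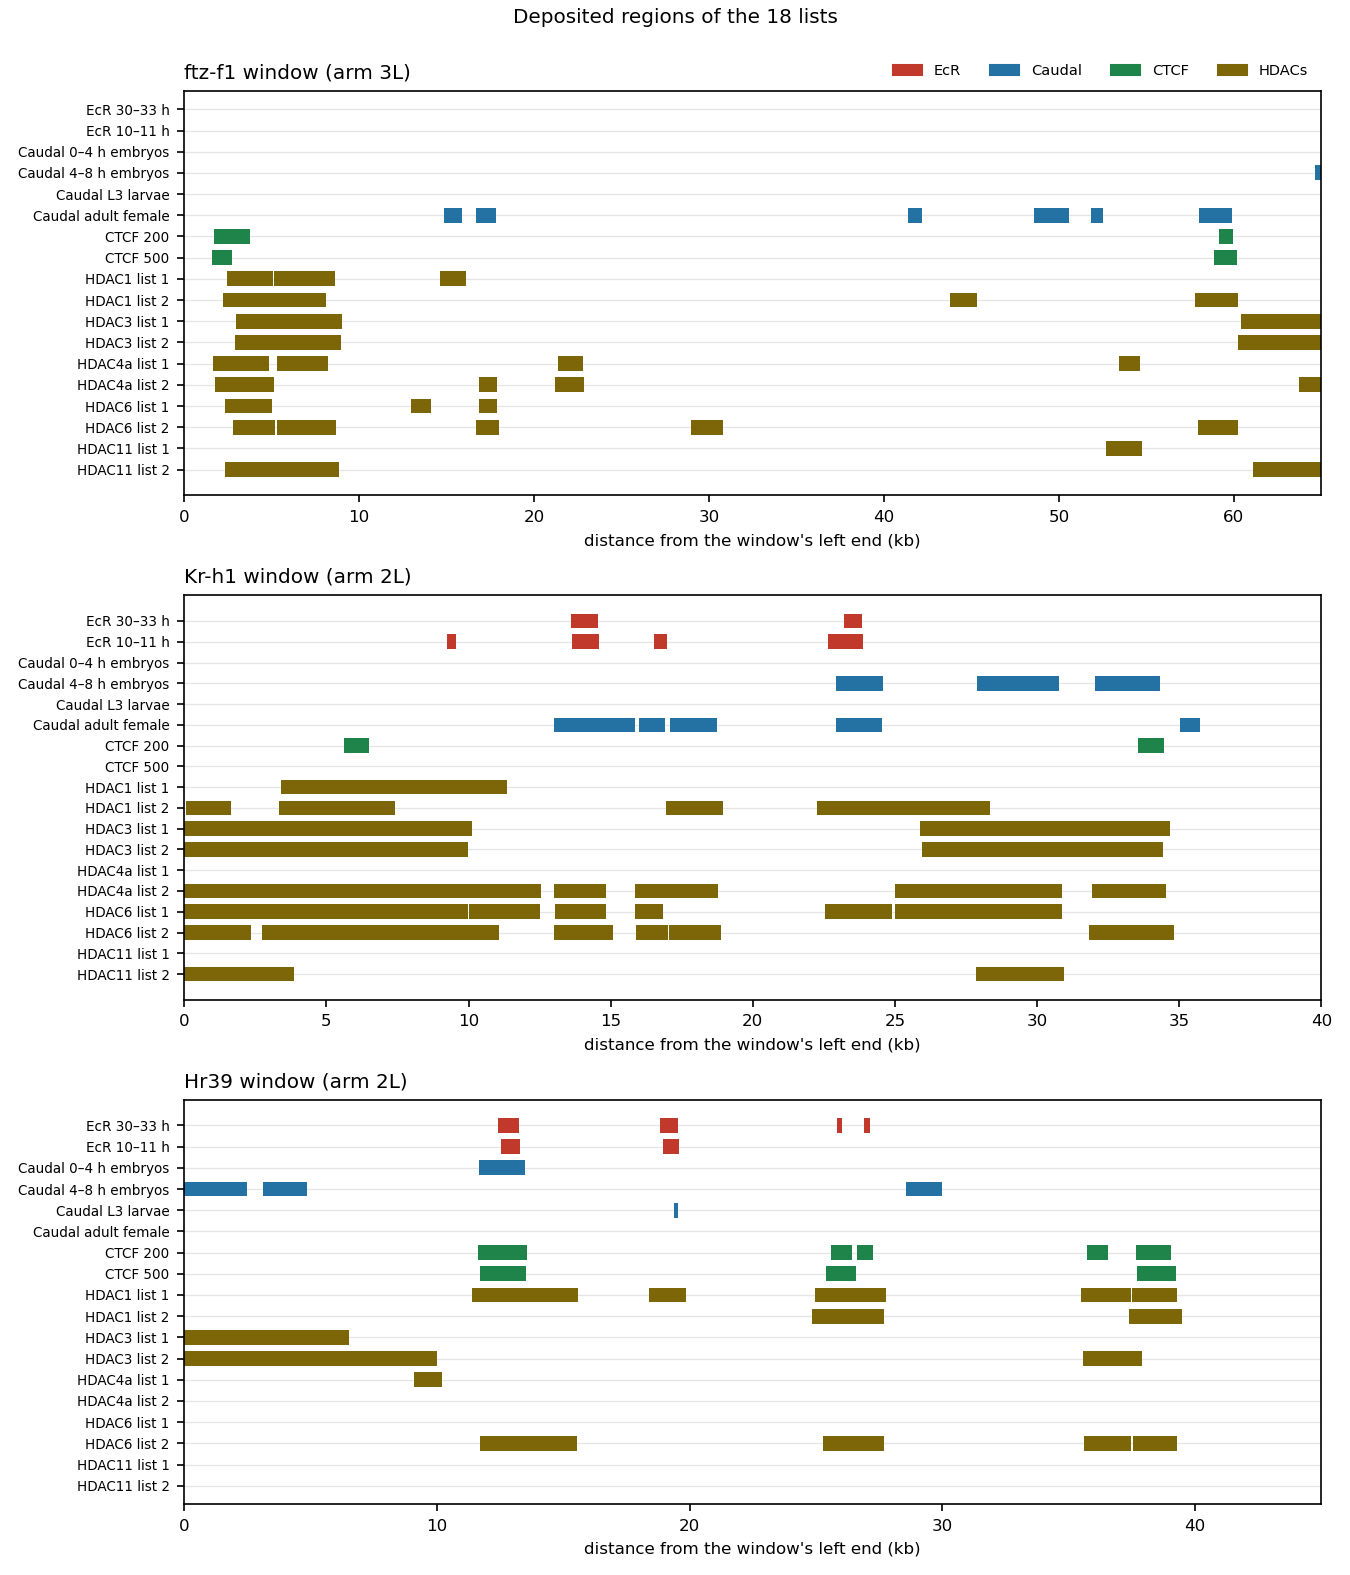
Deposited regions (bars, to scale) of the 18 lists (rows) in the ftz-f1, Kr-h1 and Hr39 windows against distance from the window's left end in kb, coloured by target. No EcR bar lies in the ftz-f1 window, while deacetylase peaks run over much of the Kr-h1 window.

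Most EcR regions of the windows were found at both times. At 30–33 h, 18 of 25 overlapped a region at 10–11 h, against 53.3% of all regions in that list. Likewise 18 of 26 regions at 10–11 h overlapped a region at 30–33 h, against 53.0% of all regions. By gene, the regions of 30–33 h found at 10–11 h were 3 of 3 at br, 9 of 11 at Hr4, 2 of 5 at Eip74EF, 2 of 2 at Kr-h1 and 2 of 4 at Hr39. Those of 10–11 h found at 30–33 h were 3 of 5 at br, 9 of 11 at Hr4, 2 of 4 at Eip74EF, 2 of 4 at Kr-h1 and 2 of 2 at Hr39. The 18 regions of 30–33 h with a counterpart had midpoints 3 to 975 bp from it, with a median of 125 bp, and 13 lay within 250 bp. All region widths in both lists are 35 bp more than a multiple of 100 bp, so positions are resolved to steps of about that size.

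Regions found at both times were wider and ranked higher than the rest, in the windows and in the whole lists alike. At 30–33 h, the 18 window regions found at 10–11 h had a median width of 785 bp and a median rank of 108, and the 7 not found there had 435 bp and 263. Over the whole 30–33 h list the medians were 535 bp and 188 for the 255 found at both times, and 335 bp and 297 for the 223 not found at 10–11 h. At 10–11 h, the 18 found at 30–33 h had a median width of 935 bp and a median rank of 71, and the 8 not found there had 335 bp and 286. Over the whole 10–11 h list the medians were 535 bp and 144 for the 256 found at both times, and 335 bp and 336 for the 227 not found at 30–33 h. Per the headers the count threshold was 310.4 at 30–33 h and 169.4 at 10–11 h, and its part in which regions were found at both times was not tested.

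**Figure D4:**
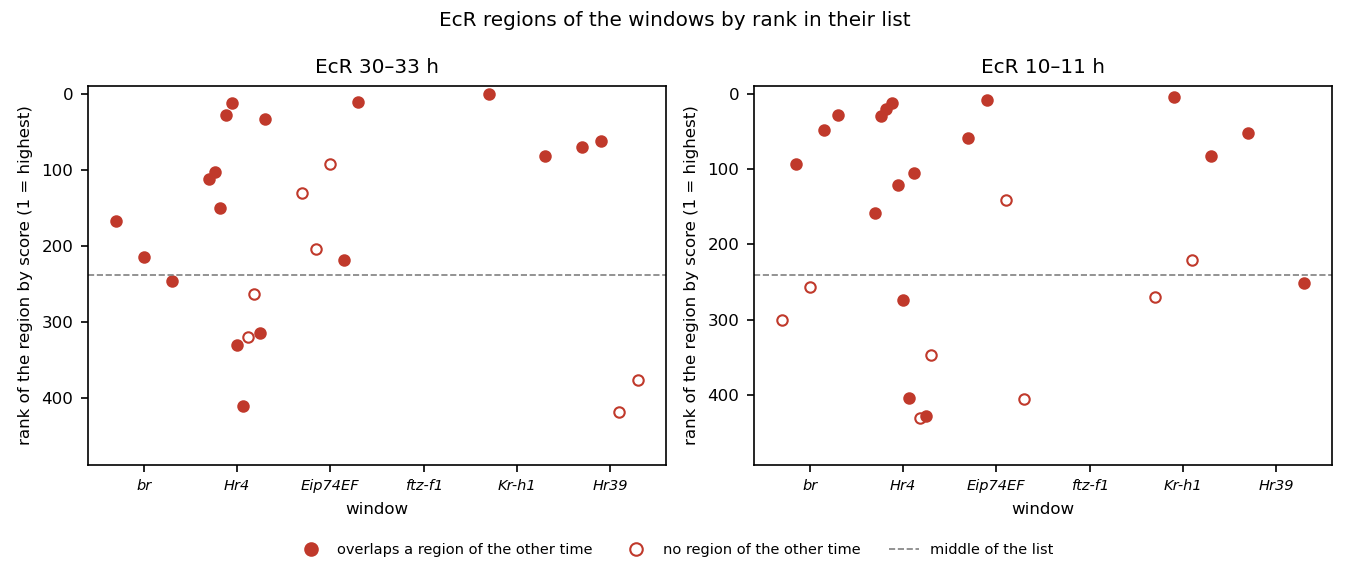
Rank by the authors' score (1 is highest, axis inverted) of each EcR region in the windows, at 30–33 h (left, 25 regions) and 10–11 h (right, 26 regions). Filled points overlap a region of the other time (18 in each panel), and open points do not (7 and 8).

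The plot of ranks shows that the windows' regions stretched from the top to the foot of each list. Ranks ran from 1 to 419 of 478 at 30–33 h with a median of 150, and from 5 to 431 of 483 at 10–11 h with a median of 132. In the upper 10% of the list by score were 5 of the windows' 25 regions at 30–33 h, against 9.83% of the list, and 7 of 26 at 10–11 h, against 9.94%. Those 5 lay in 3 windows and those 7 in 4 windows. The windows' regions also had larger widths than the list as a whole. Their median width was 635 bp at 30–33 h against 435 bp over the list, and 735 bp at 10–11 h against 435 bp.

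Most EcR regions of the windows coincided with a peak of another list, as most EcR regions of the genome did. At least 1 of the 16 other lists overlapped 21 of 25 regions at 30–33 h, against 82% of the whole list, and 21 of 26 at 10–11 h, against 83.4%. The exceptions at 30–33 h were X:1510887-1511521 at br, X:1861187-1861521 at Hr4, and 3L:17556662-17557296 and 3L:17583562-17584196 at Eip74EF. The exceptions at 10–11 h were X:1471112-1471446, X:1504012-1504446 and X:1510612-1511546 at br, X:1874112-1874346 at Hr4 and 3L:17606309-17606743 at Eip74EF. The number of other lists on a region ranged from 0 to 1 at br, 0 to 8 at Hr4, 0 to 7 at Eip74EF, 4 at Kr-h1 and 2 to 5 at Hr39 at 30–33 h. The range at 10–11 h was 0 to 1 at br, 0 to 8 at Hr4, 0 to 7 at Eip74EF, 4 to 6 at Kr-h1 and 2 to 5 at Hr39. At br 2 of 3 regions at 30–33 h and 2 of 5 at 10–11 h were each overlapped by 1 other list, in all 4 cases an HDAC11 list. These cases rest on 1 peak of each HDAC11 list, both low by width. They were X:1512102-1513705 of list 1 (rank 934 of 982) and X:1472165-1473445 of list 2 (rank 1321 of 1506). Neither overlapped a peak of the other HDAC11 list.

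HDAC1, a class I deacetylase, overlapped 12 of 25 EcR regions at 30–33 h against 52.3% of the list, and 13 of 26 at 10–11 h against 55.1%. Both HDAC1 lists lay on 6 of them at 30–33 h and on 4 at 10–11 h. HDAC6, a class II enzyme best known for deacetylating tubulin, overlapped 12 of 25 at 30–33 h against 42.7%, and 11 of 26 at 10–11 h against 43.3%, with both lists on 4 regions at 30–33 h and on 6 at 10–11 h. HDAC4a, the label of a class II deacetylase, overlapped 9 of 25 at 30–33 h against 28.5%, and 9 of 26 at 10–11 h against 23.6%, with both lists on 4 at 30–33 h and on 5 at 10–11 h. As shares of the windows' regions, the overlaps with either list were 48%, 48% and 36% at 30–33 h, and 50%, 42.3% and 34.6% at 10–11 h. The shares of the whole list are also for either list. No such share was computed for overlap with both lists, so those counts cannot be called high or low.

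HDAC11 and HDAC3 lay farther from the share of the whole list, in opposite directions. HDAC11 overlapped 9 of 25 EcR regions (36%) at 30–33 h against 16.9% of the list, and 8 of 26 (30.8%) at 10–11 h against 14.9%. Both HDAC11 lists overlapped 1 region at either time, the left-most of the Hr4 cluster, a count that likewise has no share of the whole list. Of the 9 at 30–33 h, 6 lay at Hr4. HDAC11 list 1 has 3 peaks that meet EcR there, X:1832112-1840651, X:1840692-1843425 and X:1856830-1860618. HDAC3 overlapped 0 of 25 EcR regions at 30–33 h against 17.8% of the list, and 2 of 26 at 10–11 h against 19%. The 2 were 3L:17614209-17614443 at Eip74EF and 2L:6074241-6074575 at Kr-h1, both of them in both HDAC3 lists.

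**Figure D5:**
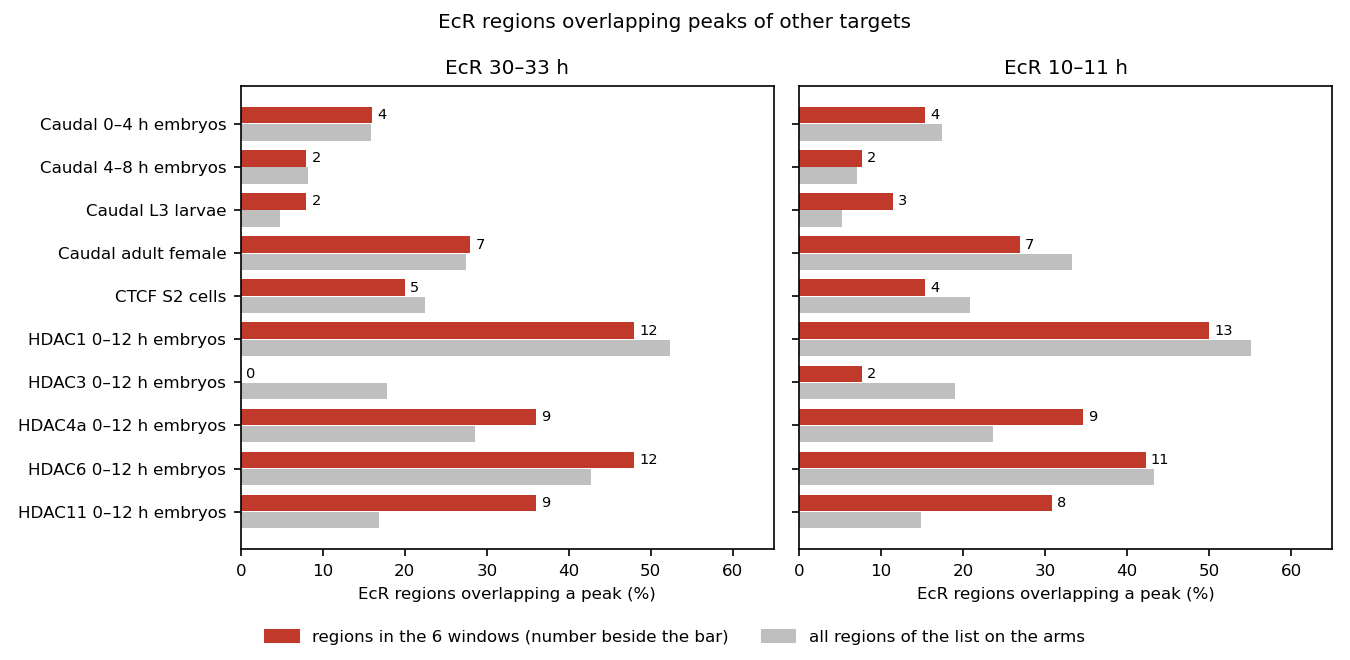
Percent of EcR regions overlapping a peak of each other target (rows, from either list where a target has 2) at 30–33 h (left) and 10–11 h (right), for regions in the windows (red, with their number) and for all regions of the list on the arms (grey). Window and list shares are close for most targets, with HDAC11 above (9 of 25 regions, or 36%, against 16.9%) and HDAC3 below (0 against 17.8%) at 30–33 h.

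CTCF and the Caudal lists of embryos and adults overlapped 2 to 7 of the windows' EcR regions each. Caudal in embryos of 0 to 4 h overlapped 4 of 25 at 30–33 h against 15.9% of the list, and 4 of 26 at 10–11 h against 17.4%. Caudal in embryos of 4 to 8 h overlapped 2 of 25 against 8.16%, and 2 of 26 against 7.04%, at the same times. These early embryo shares were near those of the EcR lists as a whole. Caudal in adult females overlapped 7 of 25 at 30–33 h against 27.4%, and 7 of 26 at 10–11 h against 33.3%. CTCF overlapped 5 of 25 at 30–33 h against 22.4%, and 4 of 26 at 10–11 h against 20.9%. Seen from the other lists, 4 of the 5 Caudal peaks of 0 to 4 h embryos in the windows met EcR of 30–33 h, against 3.15% of that whole list, and 4 met EcR of 10–11 h, against 3.66%. Of 19 Caudal peaks of 4 to 8 h embryos, 2 met EcR of 30–33 h, against 0.68%, and 2 met EcR of 10–11 h, against 0.591%. Of 23 adult Caudal peaks, 7 met EcR of 30–33 h, against 3.85%, and 7 met EcR of 10–11 h, against 4.64%. Peaks of each of these lists thus met EcR in a larger share in the windows, which hold more EcR regions per base, than on the arms. Of 37 CTCF peaks in both lists together, 9 met EcR of 30–33 h, against 2.15%, and 6 met EcR of 10–11 h, against 2.01%.

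The Caudal L3 list had 4 regions in the windows, of which 2 overlapped EcR of 30–33 h, against 4.11% of that list, and 3 overlapped EcR of 10–11 h, against 4.45%. Here too the windows hold more EcR regions per base than the arms, so a larger share there is not particular to this list. As a share of the EcR regions these were 2 of 25 at 30–33 h against 4.81% of the EcR list, and 3 of 26 at 10–11 h against 5.18%. The strongest was 3L:17604712-17605446 at Eip74EF, with 735 bp, a score of 7.72 and rank 10 of 584, on the EcR stretch shared by both times. The other 3 were 135 bp wide and ranked 430 to 576. The part that the EcR name in this list's header plays in the overlap was not tested.

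The number of lists with a peak differed between windows, which also differ in length. All 18 lists had a peak at Hr4 and at Eip74EF. At br 14 lists had a peak, and the 4 without were Caudal of 0 to 4 h embryos, Caudal of adult females and both HDAC1 lists. At ftz-f1 14 lists had a peak, and the 4 without were both EcR lists, Caudal of 0 to 4 h embryos and Caudal L3. At Kr-h1 and at Hr39 13 lists had a peak. Lists without a peak at Kr-h1 were Caudal of 0 to 4 h embryos, Caudal L3, CTCF 500, HDAC4a list 1 and HDAC11 list 1. At Hr39 they were Caudal of adult females, HDAC4a list 2, HDAC6 list 1 and both HDAC11 lists. An empty stretch was common along the arms for the short windows. Of 40 kb tiles, 43.7% to 82.8% held no peak of the lists without a peak at Kr-h1, and of 45 kb tiles 33% to 68.4% held none of those without one at Hr39. For the br window of 135 kb it was less common, with 13% and 8.9% of tiles free of HDAC1 lists 1 and 2, 14.1% of adult Caudal and 24.2% of Caudal of 0 to 4 h embryos. With the upper 50% of each list, 8 lists in place of 14 had a peak at br. In presence or absence over the 18 lists, Hr4 and Eip74EF were alike in all 18, and ftz-f1 and Hr39 were the least alike pair with 9.

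Caudal, which patterns the posterior of the embryo and acts later in the gut, had peaks in 3 of 6 windows in embryos of 0 to 4 h, 6 in embryos of 4 to 8 h, 4 in L3 larvae and 4 in adult females. The share of 80 kb tiles with a peak in these lists was 59.7%, 86.1%, 31.1% and 72.5% in the same order. The windows held 5, 19, 4 and 23 peaks at these stages, or 0.586, 0.861, 1.73 and 1.71 times the number from length. The adult peaks were concentrated at Eip74EF with 9, ftz-f1 with 6 and Kr-h1 with 5, where length gives 2.55, 1.84 and 1.13. Tiles of the same length held as many adult peaks in 3.38%, 6.93% and 4.63% of cases, in the same order of genes. The ftz-f1 window thus had no EcR region, yet its 6 adult Caudal peaks covered 11.7% of its bases. The adult and 4 to 8 h lists come from 1 library each.

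CTCF peaks lay in 6 of 6 windows in the list numbered 200 and in 5 of 6 in the list numbered 500, where 90.3% and 78.1% of 80 kb tiles had one. The windows held 23 peaks of list 200 and 14 of list 500, or 1.19 and 1.35 times the number from length. Of the 14 peaks of list 500, 13 overlapped list 200, against 91.8% on the arms, and 13 of the 23 peaks of list 200 overlapped list 500, against 49.8%. The widest CTCF peaks of the windows lay on the strongest EcR region of Hr4, at X:1845156-1848872 in list 200 (rank 51 of 4879 by width) and at X:1845509-1848414 in list 500 (rank 94 of 2615).

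Each of the 10 deacetylase lists covered a larger share of the windows than of the arms. HDAC1 list 2 covered 12.7% of the windows against 11.7% of the arms, HDAC4a list 2 covered 18.7% against 8.76%, and HDAC11 list 2 covered 8.93% against 3.71%. HDAC1 had peaks in 5 of 6 windows in both lists, where 75.4% and 80.4% of tiles had one in lists 1 and 2. HDAC3 had peaks in 6 of 6 in both lists, where 67.6% and 68.8% of tiles had one. HDAC4a had peaks in 5 of 6 in both, where 73.7% and 81.1% had one. A peak of these 3 enzymes was thus common in stretches of this length. HDAC6 had peaks in 5 of 6 in list 1 and 6 of 6 in list 2, where 73.5% and 78.1% had one. HDAC11 had peaks in 4 of 6 in list 1 and 5 of 6 in list 2, where 46.1% and 58.3% had one.

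The paired deacetylase lists met each other in the windows to very different degrees. Of HDAC1 list 1 peaks in the windows, 9 of 13 overlapped list 2, against 85.4% on the arms, and 7 of 16 list 2 peaks overlapped list 1, against 61.8%. Of HDAC3 list 2 peaks, 14 of 17 overlapped list 1, against 90.4%, and 16 of 16 list 1 peaks overlapped list 2, against 95.9%. Among the deacetylases, the lists of HDAC3, which works with the co-repressor SMRTER, met most often in the windows, as they did on the arms.

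HDAC4a, HDAC6 and HDAC11 matched less. Of HDAC4a list 1 peaks, 6 of 12 overlapped list 2, against 28.5%, and 7 of 31 list 2 peaks overlapped list 1, against 19.5%. Of HDAC6 list 1 peaks, 12 of 23 overlapped list 2, against 47.8%, and 11 of 23 list 2 peaks overlapped list 1, against 40.5%. Of HDAC11 list 1 peaks, 1 of 8 overlapped list 2, against 19.1%, and 1 of 12 list 2 peaks overlapped list 1, against 13.1%. For HDAC6 and HDAC11 these counts are close to those that the shares of the arms give. Across targets, 19 of 23 HDAC6 list 1 peaks overlapped HDAC4a list 2, against 83.6%. Of the 23 HDAC6 list 2 peaks, 14 overlapped HDAC1 list 2, against 72.1%, and 12 overlapped HDAC1 list 1, against 69.8%. No HDAC6 peak in the windows had both the same start and the same end as a peak of the HDAC4a or HDAC1 list it was set against. Some shared 1 edge to the base. For HDAC6 list 1 and HDAC4a list 2 these edges were X:1566020, 3L:17626130, 3L:17638538, 3L:18752895 and 2L:6095878. HDAC6 list 2 and HDAC1 list 1 shared 2L:21264303. The source of these shared edges was not tested.

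Kr-h1 was the window most covered by HDAC3, by HDAC6 and by HDAC4a list 2. The 2 lists of HDAC1 and of HDAC11 differed there. HDAC1 list 1 covered less of Kr-h1 (19.9%) than of Hr39 (27.2%). HDAC1 list 2 covered Kr-h1 more than any other window, with 34.3% against 24.9% of Hr4, the next. HDAC11 list 1, which covered 20.9% of Hr4, had no peak at Kr-h1. HDAC11 list 2 covered Kr-h1 most, with 17.3% against 16% of ftz-f1, the next. HDAC4a list 2 covered 64.3% of the Kr-h1 window and HDAC4a list 1 none of it, so this value rests on 1 list. HDAC6 covered 58.7% in list 1 and 46.7% in list 2, with 6 peaks in each, where 0.932% and 0.4% of 40 kb tiles held as many. HDAC3 covered 47.4% in list 1 and 46.1% in list 2. Only 20.6% of the Kr-h1 window lay in no list at all, against 61.7% of the arms, and a base of the window was in 3.87 lists on average, against 1.14 on the arms. The widest peak outside the EcR lists was 2L:6060485-6077542 of HDAC4a list 2, the third widest of its 4003 peaks on the arms, which reaches past the window's left end and takes in the EcR region at 6074241 of 10–11 h.

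At the other genes the coverage was lower. The share of the window in no list was 74.7% at br, 37% at Hr4, 49.7% at Eip74EF, 55.1% at ftz-f1 and 46.2% at Hr39. The mean number of lists per base was 0.636 at br, 2.49 at Hr4, 1.39 at Eip74EF, 1.49 at ftz-f1 and 1.52 at Hr39. The br window was thus the barest of the 6, with less in any list than the arms as a whole. HDAC3 peaks were wide along the arms in general, with median widths of 5295 and 5826 bp in lists 1 and 2. The highest median of any other list was 3166 bp, for HDAC11 list 1. In all windows but that of Kr-h1 the widest peak outside the EcR lists belonged to HDAC3. It was X:1558522-1569088 at br, X:1810660-1824895 at Hr4, 3L:17629159-17637487 at Eip74EF, 3L:18795243-18802796 at ftz-f1 and 2L:21220969-21235008 at Hr39, and no EcR region touched any of these 5.

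The points where most lists met were of different make at different genes. At Eip74EF as many as 9 lists met at 3L:17605031-17605446, and these were both EcR lists, all 4 Caudal lists, both CTCF lists and HDAC4a list 2. On the arms 0.737% of bases were in as many lists. At Hr39 7 lists met at 2L:21237541-21238248, namely both EcR lists, Caudal of 0 to 4 h embryos, both CTCF lists, HDAC1 list 1 and HDAC6 list 2, as did 2.98% of arm bases. At Hr4 10 lists met in 4 separate runs, as did 0.287% of arm bases. Of these runs X:1835612-1835783 held both EcR lists and both lists of HDAC1, HDAC4a, HDAC6 and HDAC11. In these 3 windows a fullest point thus lay on an EcR region found at both times.

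The other fullest points held deacetylase lists, mostly with a CTCF list, and no EcR. At ftz-f1 10 lists met at 3L:18737943-18738744, all of them CTCF 200 or deacetylase lists. A second run of 9 lists at Eip74EF, 3L:17637188-17637487, held both CTCF lists and 7 deacetylase lists and no EcR. The longest of the 4 runs at Hr4, X:1821329-1822584, held both CTCF lists and 8 deacetylase lists and no EcR. At Kr-h1 8 lists met at 2L:6070632-6071495, again CTCF 200 with deacetylase lists, as did 1.58% of arm bases. At br 7 lists met at X:1589583-1590000, the right edge of the window, where Caudal of 4 to 8 h embryos, CTCF 200 and 5 deacetylase lists met.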

How the data were processed

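Binding was measured by ChIP-seq in the 18 ChIP samples described above. The build is BDGP release 5, per the submitters' processing notes. Aligner and peak caller were not given in the sources used here, and depth per library is unknown. The authors deposited 1 list of regions per ChIP sample, with libraries pooled beforehand. Per the file headers, 3 lists (both EcR lists and Caudal L3) also carry a score, and regions are runs of a density track above 310.4, 169.4 or 133.8 counts, with gaps up to 100 bp bridged and runs of 100 bp or more kept. The other 15 lists give start and end only, as deposited, so their peaks were ranked by width. Thresholds differ between lists, so neither scores nor numbers of regions were compared as strength of binding.

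The members, windows, gene list and comparisons were chosen with earlier results of these data known. Regions on X, 4 and both arms of chromosomes 2 and 3 were used, and overlap means 1 bp or more. The number that length gives is the window's length times the list's regions per base of the arms. It makes no allowance for peak width, so folds of lists with wide peaks, which reach in from outside, come out high. Tiles are adjacent stretches of the arms of a window's length, or of 80 kb, and the windows themselves were not left out of them. No p was computed: each EcR time and Caudal stage has 1 list, and the paired lists of the other targets are compared by their overlap. In each window the regions named were the highest by score in each EcR list, every EcR region found at both times where a window has 6 or fewer, and the widest peak of the other lists; further regions were named after their values were seen. Other genes of the pathway, promoters and sequences were not analysed here, as no annotation or genome of release 5 was used. Placement of the genes in the windows was taken as given. Alternatives changed how membership, overlap and the list's lower part were treated. The work used Python 3.11.15, NumPy 2.4.6 and Matplotlib 3.10.9, and the overlap counts were tested on simulated lists.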

Additional observations from a re-analysis of the deposited data

How the results depend on the processing

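No paired analysis was possible because no result comes from a test. The windows' EcR count at 30–33 h was 25, and it lay between 17 and 25 under the 5 alternatives. At 10–11 h it was 26 and lay between 16 and 28. The value of 16 came from the upper 50% of the list by score, and it was the EcR count that moved by over 1.5 times, since that setting drops 50% of the list. With the same setting EcR covered 3.89% of the windows at 30–33 h, in place of 4.79%, and 4.37% at 10–11 h, in place of 5.12%. Regions of 30–33 h found at 10–11 h numbered 18, and 12 to 19 under 4 alternatives. Of 84 values for single windows 73 stayed within 1.5 times and 11 did not. All are counts, which have no direction to reverse, and the 73 include EcR counts at ftz-f1 that stayed at 0. Hr4, with 11 regions at either time, had 6 at 30–33 h and 6 at 10–11 h in the upper 50%, and 7 at 30–33 h and 6 at 10–11 h with regions under 1 kb apart merged. At ftz-f1 windows narrowed by 10 kb on either side left 8 lists with a peak in place of 14, and at br the upper 50% of each list also left 8 in place of 14. The count of 0 EcR regions at ftz-f1 held for 30–33 h with windows widened by 10 kb and became 2 at 10–11 h. Limits are single lists for EcR and Caudal, and paired lists that overlap poorly for HDAC4a, HDAC6 and HDAC11. Further limits are unknown depth, thresholds that differ between lists, and the recorded strain difference between GFP samples and their inputs, which is not settled for all of them.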
